A study of Oryza sativa with 9 samples.

Results

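The genes for the subunits of Polycomb repressive complex 2 (PRC2) were followed in rice leaf transcriptomes of a mutant in other histone methyltransferase genes. The group held 6 genes, taken by locus identifier: SDG711 (LOC_Os06g16390), SDG718 (LOC_Os03g19480), OsFIE1 (LOC_Os08g04290), OsFIE2 (LOC_Os08g04270), OsEMF2a (LOC_Os04g08034) and OsEMF2b (LOC_Os09g13630). All 6 were among the 55986 identifiers of the table. Leaves came from plants 40 days old that were grown in a paddy field. The groups were osatxr5c;osatxr6kd line 1 (3 libraries), osatxr5c;osatxr6kd line 2 (3 libraries) and wild type (WT, 3 libraries titled NP). The 2 lines carry the same genotype label, and the labels do not say how each allele was made, whether a line descends from 1 plant, or whether a replicate number stands for a plant, a pool or a repeat library. The p-values therefore measure the spread between libraries, which may be technical. The values are TPM, the authors' transcript abundance per gene length scaled to 1000000 per library, so levels can be compared between genes, but the sequencing depth behind them is unknown.

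PRC2 silences genes by trimethylating lysine 27 of histone H3. Its core holds a catalytic E(z)-type subunit, an ESC-type subunit that binds the methylated histone tail, a Su(z)12-type subunit and a histone-binding WD40 protein. ATXR5 and ATXR6, whose rice counterparts are altered in this mutant, act on the same lysine but monomethylate it and belong to a separate enzyme family. In grasses each PRC2 subunit type is encoded by paralogs, and the complex is known in rice for its part in flowering time, floral organ identity and endosperm development.

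Of the 6 PRC2 genes, 5 were detected in every library and OsFIE1 was listed at 0 in all of them. No detected gene passed the test for a change in the mutant. Against WT, 0 of the 5 tested genes were called in line 1, 0 in line 2 and 0 in the mean of both lines, and 0 were called between line 2 and line 1. These calls used limma on log2(TPM + 1) with Benjamini-Hochberg adjustment over all 19345 genes tested and a threshold of 0.05. In the same fits the share of all genes called was 25.6% for line 1 and 21.9% for line 2, each against WT, 25.7% for the mean of both lines, and 22% for line 2 against line 1. Of the 20 unadjusted limma p-values of these genes, 0 were under 0.05 as well. Across the 20 tests the 95% intervals reached from a 0.75-fold to a 1.44-fold level on the log2(TPM + 1) scale, which understates the change of low genes. In these bulk leaf samples, fewer cells of a type and less RNA per cell cannot be told apart.

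**Figure D1:**
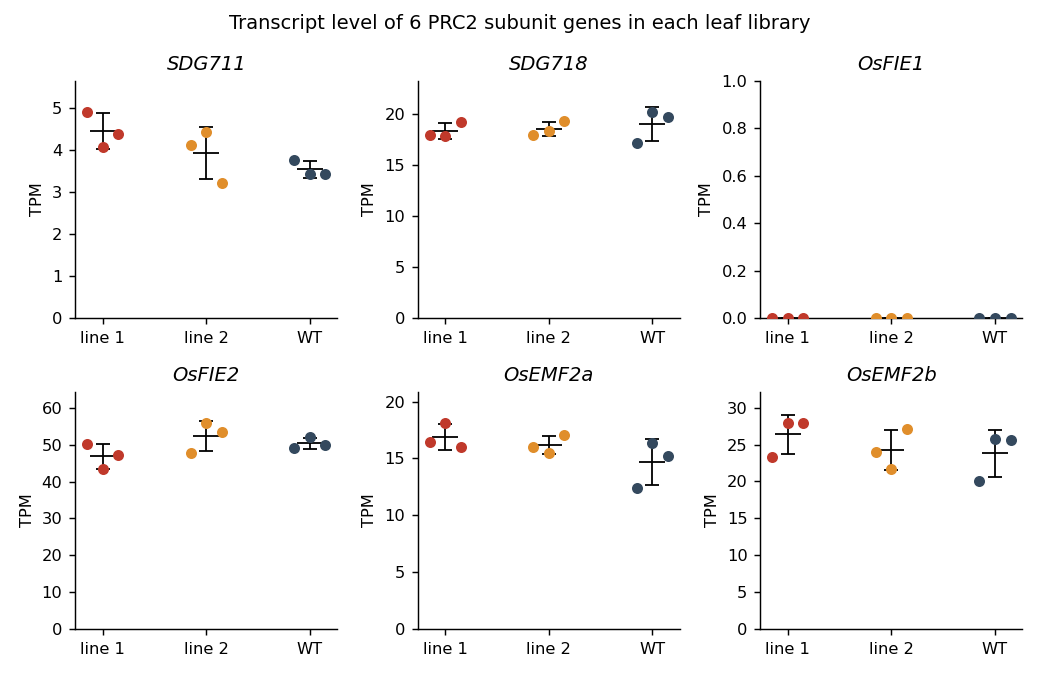
TPM of each PRC2 subunit gene in every library (points), by group on the horizontal axis, with the group mean and SD (bars; n = 3 each) and vertical axes that start at 0. OsFIE1 is at 0 in all 9 libraries, and among the other genes the 3 groups overlap except that SDG711 is higher in all 3 line 1 libraries than in WT.

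SDG711 and SDG718 are histone methyltransferases of the E(z) type, and both are known in rice from the photoperiodic control of flowering. SDG711 measured 4.90, 4.06 and 4.38 TPM in the libraries of line 1, 4.12, 4.43 and 3.22 TPM in those of line 2, and 3.77, 3.43 and 3.42 TPM in those of WT. All 3 line 1 libraries lay above all 3 WT libraries, while line 2 overlapped both. Such separation was common, since 38% of all tested genes had no overlap between line 1 and WT. In the other comparisons 0 of the 5 members were separated, against 37.8% of all tested genes for line 2 and WT, 19.1% for both lines and WT, and 38.9% for line 2 and line 1. The change of SDG711 in line 1 was 0.26 ± 0.12 (SE) on the log2 scale, with a limma p of 0.0529 and an adjusted p of 0.139. A change of 0.35 or more would have passed at this spread. In line 2 the change was 0.11 ± 0.12 (SE) (limma adjusted p = 0.595), and line 2 differed from line 1 by -0.15 ± 0.12 (SE) (limma adjusted p = 0.431). Without line 2 replicate 2 the change in line 2 was 0.035 and the difference between the lines -0.23, and without line 2 replicate 3 they were 0.22 and -0.044, with 0 of them called.

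SDG718 was the steadiest member. It measured 17.9, 17.8 and 19.2 TPM in the libraries of line 1, 18.0, 18.3 and 19.3 TPM in those of line 2, and 17.1, 20.2 and 19.6 TPM in those of WT. Both mutant lines lay inside the range of the WT libraries. The highest library exceeded the lowest by 1.18-fold, and both of these were WT libraries. Its change was -0.05 ± 0.08 (SE) in line 1 and -0.03 ± 0.08 (SE) in line 2, with limma adjusted p-values of 0.717 and 0.844. For both lines together the 95% interval of the change ran from 0.878-fold to 1.08-fold.

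SDG718 supplied most of the catalytic-subunit transcripts in each library. The ratio of SDG711 to SDG718 was 0.243 ± 0.0264 (SD, n = 3) in line 1, 0.213 ± 0.0397 (SD, n = 3) in line 2 and 0.188 ± 0.0280 (SD, n = 3) in WT. On the log2 scale the ratio in the 6 mutant libraries exceeded that in the 3 WT libraries by 0.27 ± 0.15 (SE), with a two-sided exact permutation p of 0.167, where the smallest p this design allows is 0.0119. The p adjusted over the 8 ratio comparisons made was 0.533. Without line 2 replicate 3, the library with the lowest SDG711 level and the lowest ratio, the difference was 0.36. Its unadjusted exact permutation p was 0.0179, the smallest that the remaining libraries allow. Without each of the other libraries that exact p lay between 0.107 and 0.393. By line, the log2 ratio exceeded that of WT by 0.38 ± 0.15 (SE) in line 1 and 0.17 ± 0.20 (SE) in line 2. The exact permutation p was 0.1 for line 1, the smallest that 3 against 3 libraries allow, and 0.5 for line 2. Adjusted over the 8 ratio comparisons these were 0.533 and 0.6. The summed TPM of both catalytic genes was 22.7 ± 0.84 in line 1, 22.4 ± 0.346 in line 2 and 22.5 ± 1.45 in WT (SD, n = 3 each).

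**Figure D2:**
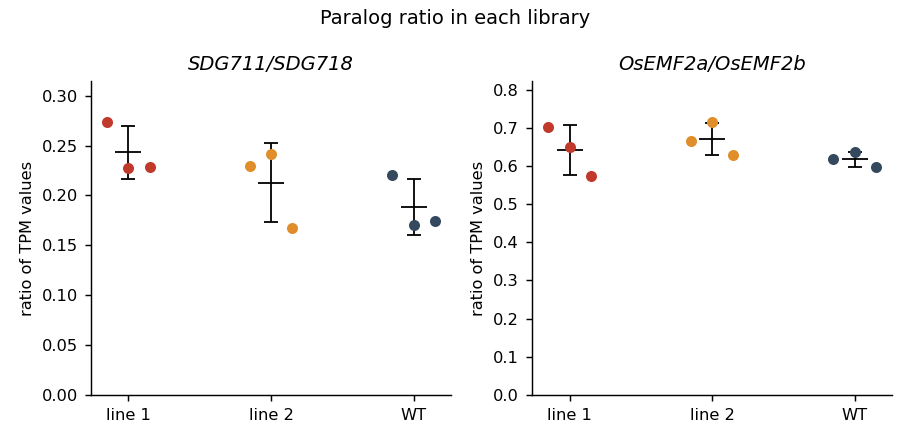
Ratio of TPM between the paralogs SDG711 and SDG718 (left) and between OsEMF2a and OsEMF2b (right) in every library (points), with the group mean and SD (bars; n = 3 each) and axes that start at 0. SDG711 stayed at between 0.167 and 0.274 of the SDG718 level and OsEMF2a at between 0.573 and 0.715 of the OsEMF2b level.

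Of the pair of ESC-type subunits, only OsFIE2 had values above 0 in these 9 libraries. OsFIE1, which in rice is expressed in endosperm from the maternal allele and whose ectopic expression in a known epimutant goes with dwarfism and floral defects, was listed at 0 in all 3 line 1, all 3 line 2 and all 3 WT libraries. It did not pass the filter on low values, a mean of at least 1 TPM, and was not tested. The lowest value above 0 in a library was between 0.303 and 0.327 TPM, so a level under about that value cannot be told from 0. A listed 0 can also be a failed estimate, which was not tested. At 0 in all 9 libraries were 31162 of the 55986 identifiers (55.7%), among them 5 of 7 loci listed as markers of dividing cells. Of 5 loci listed as endosperm and seed markers, 1 was at 0 throughout, and their summed TPM was 5.79 to 6.54 in line 1, 7.48 to 8.13 in line 2 and 6.52 to 8.32 in WT.

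OsFIE2, the paralog that is expressed in vegetative tissue as well as in seeds, was the highest of the 6 genes in every library. It measured 50.1, 43.4 and 47.3 TPM in the libraries of line 1, 47.9, 56.0 and 53.4 TPM in those of line 2, and 49.2, 52.1 and 49.8 TPM in those of WT. The WT libraries lay between the extremes of the mutant libraries, the lowest value being in line 1 and the highest in line 2. Its change was -0.10 ± 0.07 (SE) in line 1 (limma adjusted p = 0.335), and 0.05 ± 0.07 (SE) in line 2 (limma adjusted p = 0.668). The change in line 1 was -0.15 without line 1 replicate 1 and -0.047 without line 1 replicate 2, and the change in line 2 was 0.12 without line 2 replicate 1 and 0.0057 without line 2 replicate 2, with 0 of them called. Line 2 was at 52.4 ± 4.14 TPM and line 1 at 46.9 ± 3.41 TPM (SD, n = 3 each). That difference of 0.16 ± 0.07 (SE) had the smallest unadjusted p of the 20 tests, a limma p of 0.0504 with an adjusted p of 0.151.

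The Su(z)12-type subunits OsEMF2a and OsEMF2b are zinc-finger proteins that hold the complex together, and OsEMF2b is known in rice for its role in flowering and floral organ formation. OsEMF2a measured 16.4, 18.1 and 16.0 TPM in the libraries of line 1, 16.0, 15.5 and 17.1 TPM in those of line 2, and 12.4, 16.4 and 15.2 TPM in those of WT. All mutant libraries lay above WT replicates 1 and 3, while WT replicate 2, at 16.4 TPM, lay within the range of each mutant line. Its change was 0.19 ± 0.10 (SE) in line 1 and 0.14 ± 0.10 (SE) in line 2, with limma adjusted p-values of 0.172 and 0.368.

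OsEMF2b measured 23.4, 28.0 and 27.9 TPM in the libraries of line 1, 24.0, 21.7 and 27.1 TPM in those of line 2, and 20.1, 25.7 and 25.6 TPM in those of WT. The 3 groups overlapped. Its change was 0.15 ± 0.11 (SE) in line 1 and 0.03 ± 0.11 (SE) in line 2, with limma adjusted p-values of 0.348 and 0.887. WT replicate 1 was the lowest of all 9 libraries for OsEMF2a, OsEMF2b and SDG718. Without that library the change in line 1 was 0.08 for OsEMF2a and 0.04 for OsEMF2b, and the changes in line 2 were 0.03 and -0.08, with 0 of them called. Omitting WT replicate 2 instead gave larger changes, 0.27 for OsEMF2a and 0.21 for OsEMF2b in line 1. In line 2 that omission gave 0.22 and 0.09, again with 0 of them called.

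**Figure D3:**
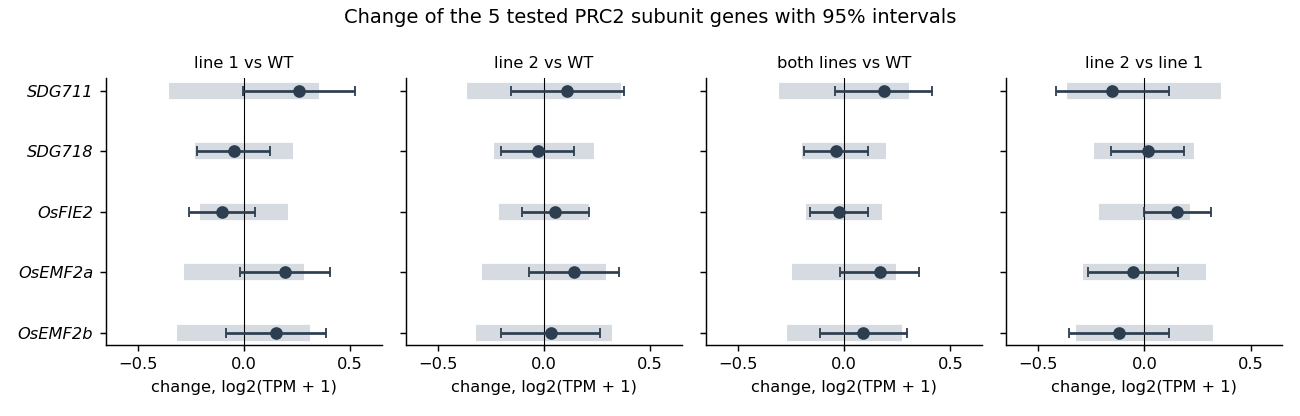
Change on the log2(TPM + 1) scale (points) with its 95% interval (lines) for the 5 tested genes in the 4 comparisons; grey bars span the changes too small to pass an adjusted p of 0.05 at each gene's spread. Each point lies inside its grey bar, and the largest change is that of SDG711 in line 1, at 0.26.

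The size of a change that would have been called differed by gene. In line 1 against WT it ran from 0.21 on the log2 scale for OsFIE2, a 1.16-fold difference, to 0.35 for SDG711, a 1.28-fold difference. The absolute change of the 5 genes in that comparison had a median of 0.15, against 0.16 for all tested genes. In line 2 against WT the median absolute change was 0.05, against 0.14 for all tested genes. The signed median was 0.15 in line 1 and 0.05 in line 2, against -0.06 and 0.00 for all tested genes. The line 1 and line 2 comparisons share the WT libraries, so like signs in both are not independent.

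The order of the levels was the same in the group means of line 1, line 2 and WT. OsFIE2 averaged 49.9 TPM over the 9 libraries, OsEMF2b 24.8, SDG718 18.6, OsEMF2a 15.9 and SDG711 3.97, with OsFIE1 at 0. OsFIE2 lay above OsEMF2b in 9 of 9 libraries with no overlap of their ranges, and OsEMF2a lay above SDG711 in the same way. The ranges of OsEMF2b and SDG718 overlapped by little, from 20.1 to 20.2 TPM, with OsEMF2b higher in 9 of 9 libraries. SDG718 was above OsEMF2a in 8 of 9 libraries, by 2.69 ± 1.57 TPM within a library (SD, n = 9), although their ranges over all libraries overlapped. Among all tested genes, OsFIE2 exceeded 83.1% in mean TPM, SDG718 59.0% and SDG711 22.2%.

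By subunit type, the ESC type gave 46.9 ± 3.41 TPM in line 1, 52.4 ± 4.14 TPM in line 2 and 50.4 ± 1.52 TPM in WT, all of it from OsFIE2 (SD, n = 3 each). The Su(z)12 type gave 43.3 ± 3.22, 40.5 ± 3.56 and 38.5 ± 5.23 TPM in line 1, line 2 and WT (SD, n = 3 each). The catalytic type was thus the lowest of the 3 types in each group. The ratio of OsEMF2a to OsEMF2b was 0.641 ± 0.0652 in line 1, 0.671 ± 0.0429 in line 2 and 0.618 ± 0.0204 in WT (SD, n = 3 each). The mutant libraries exceeded WT by 0.08 ± 0.05 (SE) in the log2 of this ratio, with an exact permutation p of 0.274 and a p adjusted over the 8 ratio comparisons of 0.548.

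The members differed in how much they varied within groups. The residual SD on the log2 scale was 0.08 for SDG718, 0.09 for OsFIE2, 0.13 for OsEMF2a, 0.13 for SDG711 and 0.17 for OsEMF2b, against a median of 0.12 over all tested genes, a quantity that also depends on the level. Over the 9 libraries OsEMF2a and OsEMF2b had a Pearson's r of 0.790 with an exact permutation p of 0.0072 and a Spearman's rho of 0.700 with an exact permutation p of 0.0433. Adjusted over the 10 pairs of members compared, these p-values were 0.072 and 0.433. Without the 2 libraries farthest from the median of OsEMF2a, r was 0.390 over the other 7, which also span a narrower range of levels. The r of the deviations from the group means was 0.798. This was not particular to the pair, as SDG711 with OsEMF2b had -0.844. For SDG718 it was 0.797 with OsEMF2b and 0.705 with OsEMF2a. The r of deviations was not tested for any pair. For the r over all 9 libraries, none of the other 9 pairs had an unadjusted p under 0.05. The smallest was an exact permutation p of 0.0995 for SDG718 with OsEMF2b, at r = 0.587.

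**Figure D4:**
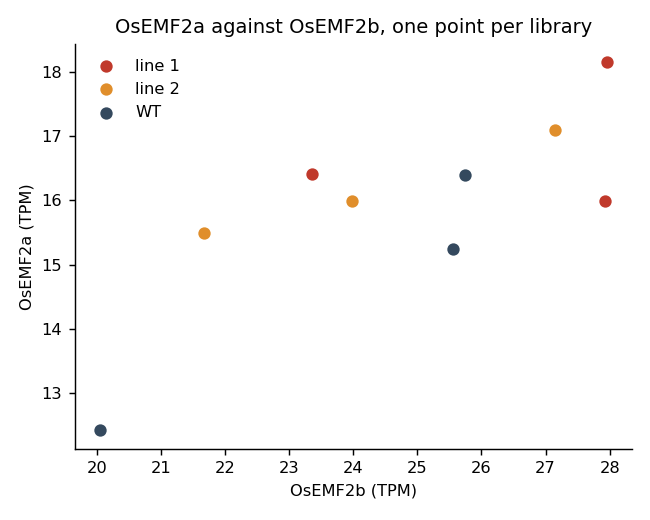
TPM of OsEMF2a (vertical axis) against OsEMF2b (horizontal axis), both axes cut off near the lowest values, with 1 point per library coloured by group. WT replicate 1 is the lowest point on both axes, at 12.4 and 20.1 TPM, and line 1 replicate 2 the highest, at 18.1 and 28.0 TPM.

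For each tested member, the gene with the most similar pattern over the 9 libraries was sought among the other 19344 genes by Pearson's r of log2(TPM + 1). This was LOC_Os06g49710 for SDG711 (r = 0.944), LOC_Os06g06880 for SDG718 (r = 0.985) and LOC_Os03g07190 for OsFIE2 (r = 0.955). For OsEMF2a it was LOC_Os10g35380 (r = 0.977) and for OsEMF2b LOC_Os01g37130 (r = 0.977). These are the highest of very many correlations over few libraries, given as a description, and the files pair no symbol with these identifiers. LOC_Os06g49710 averaged 8.30 ± 0.689 TPM in line 1, 6.15 ± 1.39 TPM in line 2 and 5.48 ± 0.531 TPM in WT (SD, n = 3 each). This is the group order of SDG711, a likeness that the choice by correlation favours and that lends no weight to the SDG711 pattern.

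Another 5 loci were listed as partners of the complex (the WD40 subunit, a reader of the methylated histone and PHD-finger proteins of the VIN3-like family). The list was drawn up from general knowledge of rice locus identifiers, which the files do not annotate, so no name is given to a single locus. All 5 were tested, but the locus that rose in line 1 passed the filter only through its line 1 values. With line 1 set against WT, 1 of 5 rose and 0 fell, where 9.94% of all tested genes rose and 15.7% fell. For line 2 the counts were likewise 1 and 0 (13.5% and 8.39% of all tested genes), and for the mean of both lines 1 and 0 (12.7% and 13%). Between line 2 and line 1, 1 locus was higher and 1 lower in line 2 (15.2% and 6.8%). The median change of the list was -0.18 in line 1 and -0.05 in line 2, against -0.06 and 0.00 over all tested genes.

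The locus that rose in line 1 was LOC_Os08g27870, named after its values were seen. It measured 8.84, 6.33 and 8.85 TPM in the libraries of line 1 and 0.712, 0 and 0.389 TPM in those of line 2, and 0 was listed for all 3 WT libraries. Line 1 stood apart from both other groups, and the call in the mean of both lines was of this same locus. The limma adjusted p was 1.4e-08 in line 1 and 0.149 in line 2, and the zeros of WT leave too little spread behind both. No fold is given against a group at 0, since the fitted log2 change depended on the pseudocount, being 3.16 in line 1 and 0.42 in line 2 with 1 TPM, and 6.32 and 1.77 with 0.1 TPM. The line 2 result was called without line 2 replicate 2, the library at 0 (limma adjusted p = 0.0276), and over the 16 alternatives its adjusted p ran up to 0.802. LOC_Os02g05840, also named after its values were seen, measured 16.7, 19.3 and 19.2 TPM in the libraries of line 1, 24.9, 25.7 and 27.2 TPM in those of line 2, and 20.2, 21.5 and 23.2 TPM in those of WT. The 3 groups did not overlap, with line 2 highest and line 1 lowest. Of all tested genes, 38% had no overlap between line 1 and WT, 37.8% between line 2 and WT, and 38.9% between line 2 and line 1. The share separated in all 3 groups was not computed. The change of LOC_Os02g05840 was 0.25 ± 0.08 (SE) in line 2 (limma adjusted p = 0.0386), and -0.22 ± 0.08 (SE) in line 1 (limma adjusted p = 0.0568). The line 1 change was called in 3 of 17 alternatives, without WT replicate 1, without line 1 replicate 2 and with the replicate number as a block, and its limma adjusted p ranged from 0.0303 to 0.197 over them. The call in line 2 was lost under 1 other setting and in 6 of the 9 fits that each left out a library (WT replicate 1 or 2, line 1 replicate 3, or any line 2 replicate), with a highest limma adjusted p of 0.141. The other 3 loci averaged between 19.6 and 39.0 TPM in each group and were called in 0 of the comparisons with WT.

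**Figure D5:**
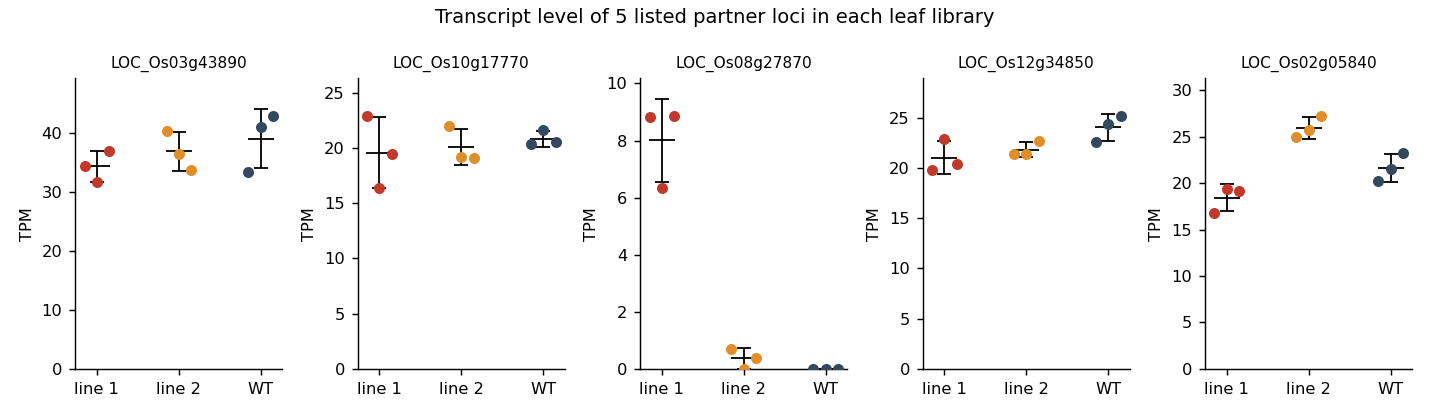
TPM of the 5 listed partner loci in every library (points), by group, with the group mean and SD (bars; n = 3 each) and axes that start at 0. LOC_Os08g27870 is between 6.33 and 8.85 TPM in line 1, at most 0.712 TPM in line 2 and at 0 in WT; LOC_Os02g05840 is highest in line 2, and the other 3 loci overlap between groups.

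Floral MADS-box genes are known targets of PRC2 silencing in leaves. Of 13 loci listed as such, 9 were at 0 in all 9 libraries, where 55.7% of all identifiers were. Of the 2 that passed the filter, 0 were called in line 1, line 2 or both lines against WT, where 25.6%, 21.9% and 25.7% of all tested genes were. Their number is too small to set against those shares. One of the 2, LOC_Os03g11614, was higher in line 2 (25.2 ± 2.01 TPM) than in line 1 (19.6 ± 2.13 TPM; SD, n = 3 each), at a limma adjusted p of 0.0129. That call was lost without line 1 replicate 3 (limma adjusted p of 0.0544) or line 2 replicate 3 (limma adjusted p of 0.0661). Line 2 against WT was close to the threshold for this locus (limma adjusted p = 0.0545) and passed it in 4 of the 17 alternative fits. The other of the 2, LOC_Os06g49840, averaged 10.4 TPM in line 1, 13.2 TPM in line 2 and 13.3 TPM in WT. It changed by -0.34 ± 0.13 (SE) in line 1 (limma adjusted p = 0.0604), where its libraries overlapped those of WT. For both loci the level in a leaf goes against the label of the list, and their identity was not tested. The 0 calls against WT among these 2 loci thus do not bear on silenced genes.

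The tissue label was checked with 8 loci listed for leaf photosynthesis, whose summed TPM was 42597 to 44438 in line 1, 48166 to 49416 in line 2 and 43640 to 46352 in WT. Not all 8 were high. LOC_Os01g52240 measured 242, 13.4 and 78.6 TPM in the libraries of line 1, 76.1, 0 and 0 TPM in those of line 2, and 205, 0 and 7.31 TPM in those of WT. Each other locus averaged between 1770 and 13980 TPM in each group. The listed loci moved between groups: 0 of 8 rose and 1 fell in line 1 against WT, 3 rose and 0 fell in line 2 against WT, and 4 were higher and 0 lower in line 2 than in line 1, by the limma test above. Their part in the results for the PRC2 genes was not tested. The 3 loci listed as shoot meristem KNOX genes were at 0 in every library. What a listed 0 stands for was not tested, so these zeros do not show that meristem tissue was absent. Both lists, like those of endosperm, dividing-cell and floral MADS-box loci, rest on general knowledge of locus identifiers that the files do not annotate. The targeted genes OsATXR5 and OsATXR6 were not analysed here, because the files pair no identifier with those names, so the mutant labels were not checked against them.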

How the data were processed

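The authors deposited 1 table of TPM with 1 column for each of 9 libraries, and each column sums to 1000000. The submitters' processing notes name fastp 0.20.1, HISAT2 2.1.10 and DESeq2 1.26.0 without their roles. The quantifier, genome build, annotation, strandedness and treatment of reads shared between paralogs are not given in the sources used here, so values of near-identical copies are uncertain. Depth is unknown. Groups came from the sample titles. The 19345 genes whose mean reached 1 TPM, 5 of the 6 members among them, were fitted on log2(TPM + 1) in limma 3.58.1 (R 4.3.3), with 3 group means, no covariate and a variance trend. Tests were two-sided, with Benjamini-Hochberg adjustment across the whole table. Paralog ratios and correlations between members were tested by exact permutation over libraries with numpy 2.4.6. The gene group and the lists were proposed with earlier results of these data known, although no value enters the rule for membership. All 6 members were named by rule, with the 1 most correlated gene for each tested member. SDG718 alone of the 6 symbols was found among 39387 rice gene records; no coordinates or sequences were used here. Alternatives were a pseudocount of 0.1, no filter, a mean of 5 TPM, quantile and median-ratio scaling, a prior variance without trend, fits of the compared groups alone, a block for replicate number, and the omission of each library.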

Additional observations from a re-analysis of the deposited data

Results flagged for a closer look

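The contrast with WT was made in 2 lines of the same genotype label. Of the 5 partner and 2 floral MADS-box loci tested, 3 were called in limma's direct test of line 2 against line 1. They are named here because they were called, so that they differed between the lines was fixed by the choice. The direct test called 22% of all tested genes, and also 4 of 8 loci listed for leaf photosynthesis, all 4 higher in line 2. LOC_Os08g27870 differed by -2.74 on the log2(TPM + 1) scale, with 0.367 TPM on average in line 2 and 8.01 TPM in line 1 (adjusted p of 1.2e-07). With a pseudocount of 0.1 that difference was -4.55, and the WT libraries, all listed at 0 for this locus, make the pooled spread behind this p too small. The locus also passed the filter only through line 1. LOC_Os02g05840 differed by 0.48, with 25.9 TPM in line 2 and 18.4 TPM in line 1 (adjusted p of 0.000658). LOC_Os03g11614 differed by 0.35, with 25.2 TPM in line 2 and 19.6 TPM in line 1 (adjusted p of 0.0129). None of the 5 tested PRC2 genes differed between the lines in this test, the smallest adjusted p being 0.151 for OsFIE2. Groups of 3 libraries are too small for the check on single outlying libraries.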

How the results depend on the processing

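The count of PRC2 genes called was 0 in each comparison under every alternative run. The lowest limma adjusted p of a member was 0.0556, for OsEMF2a in line 1. Calls over all genes ranged from 4124 to 5121 in line 1 against WT, 3484 to 4547 in line 2, 4134 to 5169 in both lines and 3582 to 4489 in line 2 against line 1, and without 1 library from 3899 to 4925, 3322 to 4672, 3922 to 4993 and 3067 to 4878. Signs of some uncalled changes were unstable, and the cause was not tested. Quantile normalization gave 0.0010 for SDG718 in line 1, -0.0020 for OsEMF2b and -0.0738 for LOC_Os08g27870 in line 2 (0.416 as reported), and -0.0639 for SDG718 in line 2 against line 1. Median-ratio scaling gave 0.0121 and -0.0535 for SDG718 in line 1 and in line 2 against line 1, and 0.00043 for OsFIE2 in both lines. Leaving out each library in turn gave -0.0993 to 0.0138 for SDG718 in line 2, -0.108 to 0.0053 in both lines and -0.0103 to 0.0493 in line 2 against line 1. It gave -0.0826 to 0.106 for OsEMF2b in line 2 and -0.0231 to 0.149 in both lines, -0.0481 to 0.0073 for OsFIE2 and -0.033 to 0.0637 for LOC_Os02g05840 in both lines. The log2 ratio of SDG711 to SDG718 in both lines against WT ranged from 0.20 to 0.39, and that of OsEMF2a to OsEMF2b from -0.018 to 0.129 in line 1 against WT and -0.0118 to 0.136 in line 2 against line 1. With the replicate number as a block, 5076, 4301, 5044 and 4381 genes were called in the 4 comparisons in the same order and 0 members. Same-numbered libraries had correlations of deviations between 0.0116 and 0.212. Differently numbered libraries were not correlated for comparison, so these values cannot decide whether the numbers pair the libraries. The ratio of OsFIE1 to OsFIE2 was not tested, since OsFIE1 was listed at 0, and SDG711 has no value under the minimum of 5 TPM.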
